A study of Arabidopsis thaliana with 12 samples.

Results

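The comparison described here is the genotype by treatment interaction: how the response of rosette leaves to 2'cADPR differed between Arabidopsis thaliana plants without PAD4 and wild type plants. It is the log2 change of 2'cADPR over water in pad4 minus the same change in wild type (WT), so a negative value means that a gene's change in pad4 lay below its change in WT. All 12 of the 12 RNA-seq libraries enter it, 3 in each of 4 groups: pad4 after 2'cADPR, pad4 after water, WT after 2'cADPR and WT after water. The pad4 plants carried a knockout of PAD4 and the WT plants were the accession Col-0, and no other allele or agent is labelled. The pad4 allele, the dose, the time between treatment and harvest, the plant age and the number of plants per library were not stated, and nothing says that the 3 libraries of a group came from separate plants, so p-values measure only the spread between these libraries. The study asked whether the action of 2'cADPR depends on the pathway of EDS1, PAD4 and ADR1.

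Plants detect many pathogen effectors with receptors that carry a TIR domain, an enzyme that breaks down NAD+ and releases small nucleotide signals, 2'cADPR among them. EDS1, a lipase-like protein, pairs with PAD4 and binds nucleotide signals of this kind, and the pair then engages helper receptors of the ADR1 family, which form calcium channels at the plasma membrane. Known outputs of this branch are salicylic acid synthesis, systemic acquired resistance and the broad reprogramming of leaf transcription that accompanies immunity.

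PAD4 itself (AT3G52430, chr3:19431095-19434450, plus strand, TAIR10 coordinates as for all genes here) checks the labels. Its levels were 3.02, 2.52 and 4.80 CPM (reads of the gene scaled to library size) in pad4 after 2'cADPR and 3.14, 2.94 and 5.51 CPM in pad4 after water. WT libraries held 548, 590 and 518 CPM after 2'cADPR and 75.0, 63.9 and 66.8 CPM after water. All 6 pad4 libraries lay far below all 6 WT libraries, as the labels say, and the interaction of PAD4 was -3.18 ± 0.29 (log2 ± standard error, as in what follows; adjusted p = 3.6e-07).

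The libraries held 35816755 to 44436989 counted reads. On a principal component analysis the first component, 90.1% of the variance, placed the pad4 libraries of both treatments together at 61.7 to 71.6, WT after 2'cADPR at -134 to -124 and WT after water at -12.8 to 4.64. WT after water replicate 1 was the library at -12.8, against 4.64 and 2.74 for replicates 2 and 3, and lay nearest to the WT libraries after 2'cADPR. Named genes whose interaction call changed without this library are marked where they are described, and counts without it are given at the end. The comparison of pad4 with WT in water was not recomputed without it. Listed markers of flower, seed and root were low. Of 13 listed genes, 7 were in the table and 2 had enough counts to be tested, together 0.465 to 4.11 CPM. SEP3, a floral gene outside this list, averaged 7.51 CPM in pad4 after water. The 26 photosystem genes together held 43819 to 77703 CPM. In such bulk tissue, fewer cells of a type and less RNA per cell cannot be told apart.

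The response to 2'cADPR was lost for most genes that responded by 2-fold or more in WT. The interaction was called, at an adjusted p under 0.05, in 11326 of 19652 tested genes (57.6%), with 5539 negative (28.2%) and 5787 positive (29.4%). At a difference of 2-fold or more, 2100 were negative (10.7%) and 3236 positive (16.5%). The responses in WT and in pad4 share the libraries of the interaction and stand beside it as its parts: 1 gene (0.00509%) was called in pad4, where 992 had an unadjusted p under 0.05 and DESeq2 called 33, and 13608 (69.2%) were called in WT, 34.6% up and 34.6% down. The median size of a change over all tested genes was 0.089 log2 in pad4 and 0.63 in WT, and the median size of the interaction was 0.63. Levels already differed before treatment: in water, 5744 genes (29.2%) were called between pad4 and WT, 3445 lower in pad4 (17.5%) and 2299 higher in pad4 (11.7%).

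**Figure D1:**
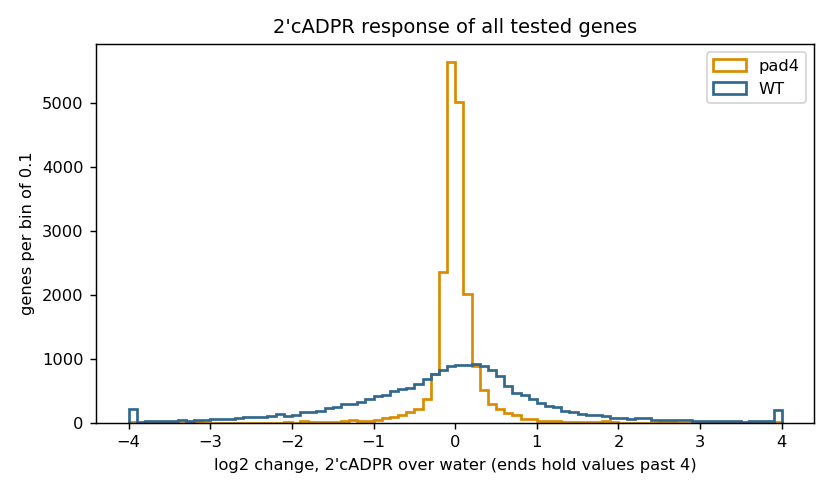
Number of tested genes (y axis, per bin of 0.1) by log2 change of 2'cADPR over water (x axis) in pad4 and in WT, with values past 4 held in the end bins. The pad4 changes are packed around 0, with a median size of 0.089, while those in WT spread widely on both sides, with a median size of 0.63.

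Counting by class shows how little was left. A gene was a responder if its WT response was called and at least 2-fold, which held for 6002 genes (30.5% of those tested), 2510 that rose and 3492 that fell. The 2-fold limit divides close values, with 285 responders within 0.05 log2 above it and 332 genes called in WT within 0.05 below it. The 7606 genes called in WT with a change under 2-fold were not classed. Of these, 1815 had no called interaction. Of the responders, 5383 (89.7%) had a called interaction, and in 5382 its sign was opposite to that of the WT response. The interaction subtracts the WT change, so this sign follows wherever the pad4 change is the smaller one. A response counted as lost if its interaction was called with this opposite sign. The whole 95% interval of the pad4 change also had to lie under 50% of the WT change. This held for 1895 rises (75.5% of the rises; 9.64% of tested genes) and 3133 falls (89.7% of the falls; 15.9% of tested genes). Among lost rises the median change was 0.018 in pad4 and 1.58 in WT, and among lost falls it was -0.024 in pad4 and -1.72 in WT.

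Most of the other responders had few reads in pad4. Some 886 were undecided, with a median level of 0.242 CPM for rises and 1.11 CPM for falls in the higher pad4 group, against 8.46 and 19.6 CPM for lost ones. Their median standard error in pad4 was 0.63 for rises and 0.42 for falls, against 0.146 and 0.134 for lost ones. When only the 3617 responders with at least 5 CPM in a pad4 group were counted, a limit chosen after the data were seen, 3534 (97.7%) were lost, 21 were partial (a called interaction, not lost, with the pad4 interval clear of 0 in the direction of WT), 59 undecided and 3 kept. For these 3617 genes the pad4 change was 2.71% of the WT change in the median gene, with a 5th to 95th percentile of -13.4% to 16%. At any level 43 responders were partial, 31 rises and 12 falls, with median levels of 4.68 and 5.57 CPM in the higher pad4 group. Their median changes were 0.45 and -0.56 in pad4, against 1.21 and -1.57 in WT.

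**Figure D2:**
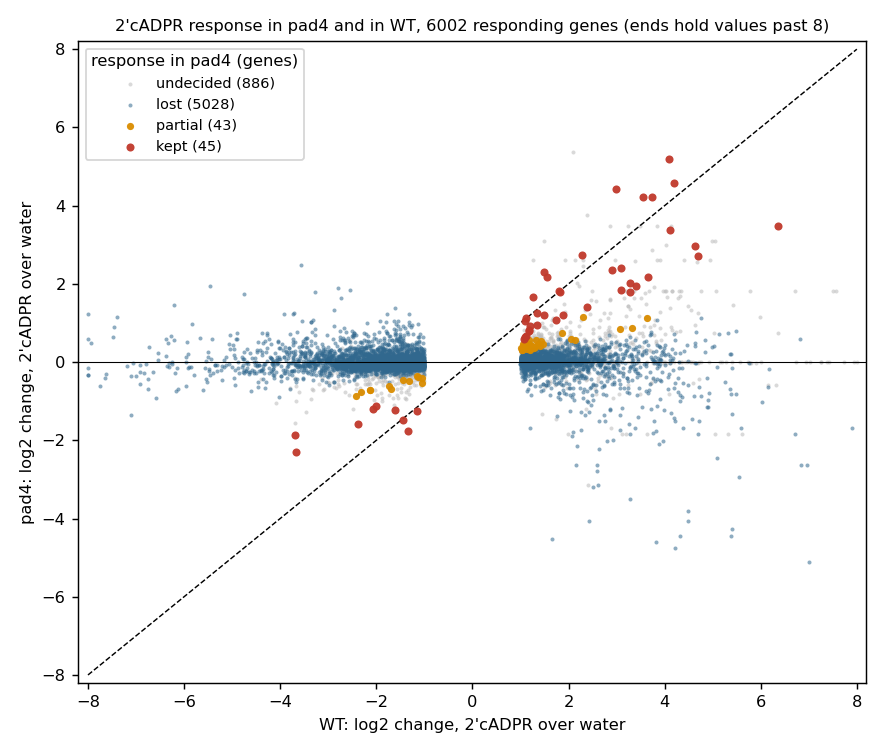
Log2 change of 2'cADPR over water in pad4 (y axis) against that in WT (x axis) for the 6002 responders, one point per gene, coloured by class, with the dashed line marking equal responses. The lost genes lie along the horizontal line at 0 in both directions, and the 45 kept genes lie nearer the dashed line.

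Genes of the EDS1 module had negative interactions. PAD4 belongs to this list and its own value follows from the knockout. Of the other 9 tested genes, 8 had a negative called interaction and 0 a positive one, beside 28.2% and 29.4% of all tested genes. Their median was -1.69, beside 0.0097 over all tested genes. EDS1 (AT3G48090, chr3:17755329-17758147, minus strand) stood at 18.3, 20 and 25.3 CPM in pad4 after 2'cADPR and 20, 22.5 and 21.4 CPM in pad4 after water, against 355, 394 and 352 CPM in WT after 2'cADPR and 119, 111 and 114 CPM in WT after water. The 2 pad4 groups overlapped and the 2 WT groups did not, and the interaction was -1.69 ± 0.14 (adjusted p = 1.2e-07). SAG101, the other lipase-like partner of EDS1, had an interaction of -1.87 ± 0.13. The helper receptors ADR1, ADR1-L1 and ADR1-L2 had -2.04, -1.60 and -1.73. In water the median of these 9 genes was already -1.48 in pad4 over WT. AT3G48080, a near-identical copy of EDS1 with which reads may be shared, was the member not called (-0.39, adjusted p = 0.59).

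Salicylic acid synthesis had the most negative median interaction of the 40 lists. Of 10 tested genes, 8 were negative, 1 positive and 1 not called, beside 28.2% negative and 29.4% positive of all tested genes. The median interaction was -2.98, with median changes of 0.06 in pad4 and 2.97 in WT. ICS1 (AT1G74710, chr1:28070295-28074177, plus strand), the isochorismate synthase that starts the pathway, held 4.15, 4.58 and 4.38 CPM in pad4 after 2'cADPR and 3.47, 3.70 and 5.35 CPM in pad4 after water. In WT it held 490, 559 and 444 CPM after 2'cADPR and 34.9, 32.8 and 32.2 CPM after water. The WT groups were far apart and the pad4 groups overlapped, with an interaction of -3.84 ± 0.19 (adjusted p = 1.3e-09). PBS3, which conjugates isochorismate with glutamate, had -4.02 ± 0.27. CBP60g, a transcription factor that activates ICS1, had -3.83 ± 0.22, and its relative SARD1 had -2.85. The positive member was ICS2 (1.12), the second isochorismate synthase gene, which had a pad4 change of -0.05 and fell in WT (-1.17). The starting levels differed too: in water, the median of the list was -2.77 in pad4 over WT, and 7 of 10 genes were called lower.

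Receptors and outputs of salicylic acid followed, with 11 of 16 genes negative and 1 positive, beside 28.2% and 29.4% of all tested genes. Their median was -1.36. NPR3, a salicylic acid receptor that represses defence genes, was at 10.9, 12.1 and 14.3 CPM in pad4 after 2'cADPR and 11.8, 11.4 and 11.4 CPM in pad4 after water, against 348, 375 and 286 CPM in WT after 2'cADPR and 44.3, 35.2 and 35.7 CPM in WT after water. Its interaction was -3.02 ± 0.17 (adjusted p = 3.9e-09), that of NPR1, the co-activator, was -1.03, and that of the secreted protein gene PR5 was -1.87. PR1, the classical marker of salicylic acid output, could not be placed by the same test. It was at 0, 0.0884 and 0.0466 CPM in pad4 after 2'cADPR and 0.187, 0 and 0 CPM in pad4 after water, against 337, 333 and 251 CPM in WT after 2'cADPR and 31.1, 1.94 and 2.48 CPM in WT after water. Every WT library after 2'cADPR was above every other library, yet WT after water replicate 1 stood more than 10-fold above the other 2, and the interaction was -5.14 ± 5.39 (adjusted p = 0.44). Without that library it was -7.56 (adjusted p = 0.0012).

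Signals of systemic acquired resistance were negative in 7 of 9 tested genes, with a median of -1.82. FMO1, the monooxygenase that makes N-hydroxypipecolic acid, had 0 counts in each of the 3 pad4 libraries after 2'cADPR and 0.0234, 0.184 and 0.0931 CPM in pad4 after water. WT held 50, 52.4 and 49.3 CPM after 2'cADPR and 0.550, 0.346 and 0.288 CPM after water. Its interaction was called (adjusted p = 1.2e-06), but no fold is given because the treated pad4 libraries held no read. ALD1, the aminotransferase upstream of FMO1, was likewise at 0 in pad4 after 2'cADPR and at 47.1, 50.7 and 42.7 CPM in WT after 2'cADPR. Its call (adjusted p = 0.0083) was lost without pad4 after water replicate 1, the only pad4 library with reads of it. AT5G52810 had -2.31 and GLI1, a glycerol kinase, had -1.35. Enzymes of salicylic acid turnover were negative in 3 of 8 genes, positive in 0 and not called in 5 (median -1.0), beside 28.2% negative of all tested genes. Among them DMR6, which hydroxylates salicylic acid, had -0.81, and the glucosyltransferase gene UGT76B1, called negative, lost its call without pad4 after water replicate 2.

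**Figure D3:**
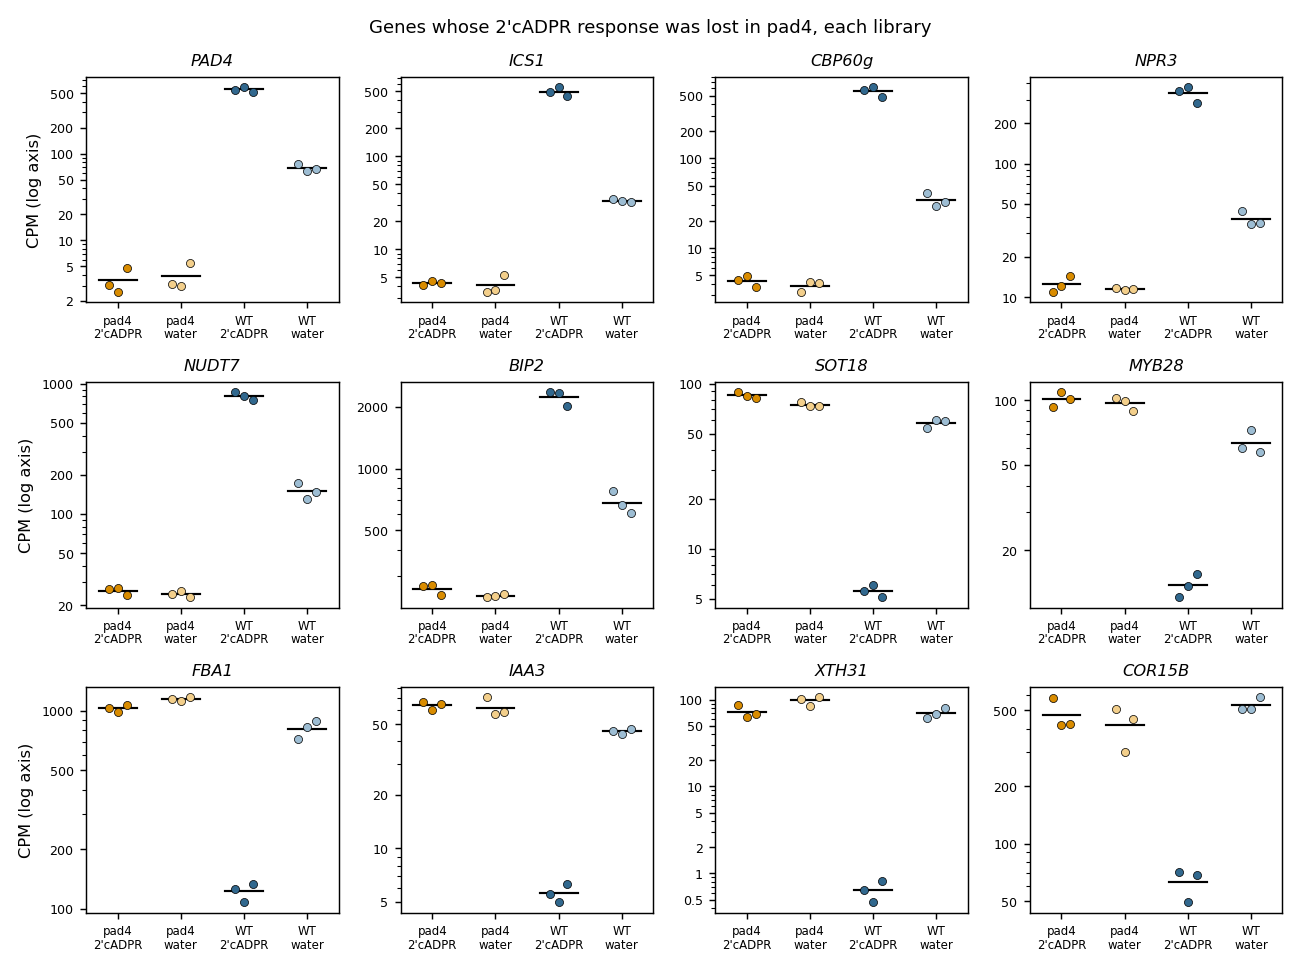
CPM (y axis, log scale) of 12 genes in each library, pad4 after 2'cADPR, pad4 after water, WT after 2'cADPR and WT after water from left to right, with a line at the mean of 3. In the first 6 panels WT after 2'cADPR is the highest group, in the last 6 it is the lowest, and in each panel the 2 pad4 groups lie close together.

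Receptor genes had mostly negative interactions, of smaller size in the cytosolic classes. Of 23 pattern receptors and partners, 19 were negative and 0 positive (median -1.43), of 23 TIR-domain receptors 18 were negative and 1 positive (median -0.81), and of 11 coiled-coil receptors 9 were negative and 1 positive (median -0.40). A rise of 2-fold or more in WT that was lost in pad4 was found in 14 of the 23 pattern receptors, 8 of the 23 TIR-domain receptors and 2 of the 11 coiled-coil receptors. Over all tested genes the share was 9.64%. BAK1, the co-receptor of many pattern receptors, was at 55.7, 60.1 and 55.6 CPM in pad4 after 2'cADPR and 57.2, 58.3 and 53.6 CPM in pad4 after water, against 238, 256 and 222 CPM in WT after 2'cADPR and 92.2, 74.9 and 83.7 CPM in WT after water. The pad4 groups overlapped and the interaction was -1.49 ± 0.11 (adjusted p = 5.2e-08). The extra-large G protein XLG2 had -2.03, the chitin receptor kinase CERK1 -1.43, and the TIR receptor genes RPP4 and CHS1 -1.66 and -1.33. SUMM2, a coiled-coil receptor gene, was the positive one of its list (0.92), having fallen in WT (-0.80).

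All 15 tested genes of the MAP kinase cascade were negative (median -1.15), beside 28.2% negative and 29.4% positive of all tested genes. MPK4, a MAP kinase of immunity, was at 53.3, 52.3 and 50.4 CPM in pad4 after 2'cADPR and 47.0, 47.1 and 46.1 CPM in pad4 after water, against 257, 255 and 232 CPM in WT after 2'cADPR and 96.2, 96.4 and 94.1 CPM in WT after water. The pad4 groups did not overlap here, and the pad4 change of 0.15 (95% interval 0.03 to 0.28; adjusted p = 0.89) was 11.2% of that in WT. Its upstream kinases MKK2 and MEKK1 had interactions of -1.33 and -1.32. Of 31 WRKY transcription factor genes, 23 were negative and 0 positive (median -2.01), among them WRKY46 (-3.73), WRKY25 (-1.53) and WRKY18 (-3.10). Cysteine-rich receptor-like kinases were negative in 18 of 29 genes and positive in 3 (median -1.20), with CRK13 at -3.43 and, on the other side, CRK42 at 1.85.

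Calcium genes split by member. Of 30 tested, 18 were negative, 6 positive and 6 not called, beside 28.2% negative and 29.4% positive of all tested genes. Lost rises were 15 and lost falls 5, beside 9.64% and 15.9%, so the lost falls were near the share of all genes. The pumps ACA13 (-4.60) and ACA12 (-3.95), the kinase CPK4 (-1.65) and the channel CNGC19 (-4.39) lost a rise. The channel genes CNGC2 (1.46) and CNGC4 (0.93), the vacuolar exchanger CAX1 (2.17) and the pump ACA8 (1.34) lost a fall. CNGC2 was at 256, 245 and 247 CPM in pad4 after 2'cADPR and 261, 268 and 266 CPM in pad4 after water, against 57.5, 65.0 and 65.4 CPM in WT after 2'cADPR and 177, 182 and 191 CPM in WT after water. All pad4 libraries lay above all WT libraries for this gene.

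Enzymes of NAD and ADP-ribose metabolism were negative in 10 of 19 genes and positive in 3 (median -0.42). The shares of all tested genes were 28.2% negative and 29.4% positive. Of the 19, 6 were lost rises and 1 a lost fall, beside 9.64% and 15.9% of all tested genes. NUDT7, a Nudix hydrolase of ADP-ribose and NADH that restrains EDS1 signalling, was at 26.5, 26.9 and 24.1 CPM in pad4 after 2'cADPR and 24.4, 25.7 and 22.9 CPM in pad4 after water, against 865, 810 and 752 CPM in WT after 2'cADPR and 172, 131 and 147 CPM in WT after water. Its pad4 groups overlapped, and its interaction was -2.35 ± 0.14 (adjusted p = 5.0e-09). NUDT6 and NUDT5 had -4.12 and -3.29, and PARG2, a poly(ADP-ribose) glycohydrolase, had -3.04. NUDT8 was positive (1.95). The synthesis genes QS and NMNAT were not called (-0.05 and 0.01).

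Genes of protein folding, turnover and export had negative interactions in nearly every member. Lost rises by the 2-fold rule were 18 of 21 in the endoplasmic reticulum, 5 of 13 in the proteasome and 9 of 12 in secretion. Over all tested genes they were 9.64%. In the endoplasmic reticulum 20 of 21 genes were negative (median -1.22). BIP2, a luminal HSP70 chaperone, was at 269, 270 and 241 CPM in pad4 after 2'cADPR and 236, 239 and 245 CPM in pad4 after water, against 2362, 2340 and 2026 CPM in WT after 2'cADPR and 776, 663 and 610 CPM in WT after water. The interaction was -1.60 ± 0.13 (adjusted p = 1.1e-07), and that of BZIP60, the transcription factor of the unfolded protein response, was -1.93. All 13 genes of the 26S proteasome were negative (median -0.74), with RPT2A at -1.23 and RPT3 at -1.20. Secretion, callose and plasmodesmata genes were negative in 11 of 12 (median -1.52), among them the SNARE gene SNAP33 (-1.66) and PDLP5 (-3.71), which closes plasmodesmata. PDLP3, of the same protein family, went the other way (5.12), at 26.2, 29.5 and 29.8 CPM in pad4 after 2'cADPR against 0.382, 0.348 and 0.339 CPM in WT after 2'cADPR.

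Further lists of stress genes are read against the 28.2% negative and 29.4% positive of all tested genes. Cell death regulators were negative in 11 of 14 genes (median -0.91), with MC1, a metacaspase, at -1.39 and BAP1, a suppressor of cell death, at -3.97. Heat shock factors and cytosolic chaperones were negative in 14 of 18 (median -1.05), with the receptor co-chaperone SGT1A at -1.72. Glutathione transferases were negative in 7 of 12 and positive in 2 (median -1.78), GSTU19 at -1.90 against GSTU20 at 3.64. Ethylene genes were negative in 10 of 17 (median -0.55), with the receptor gene EIN4 at -1.25. Genes of senescence and chlorophyll breakdown were negative in 4 of 10 and positive in 2 (median -0.52), which is near those shares, with the NAC factor gene NAP at -4.38 and SAG21, a senescence-associated gene, at -3.97. Camalexin and indole glucosinolate genes were negative in 11 of 19 and positive in 2 (median -0.84). Their MYB regulators parted: MYB51 had -1.97, while MYB34 had 4.38 and was at 25.9, 25.1 and 21.3 CPM in pad4 after 2'cADPR against 0.263, 0.813 and 0.921 CPM in WT after 2'cADPR.

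**Figure D4:**
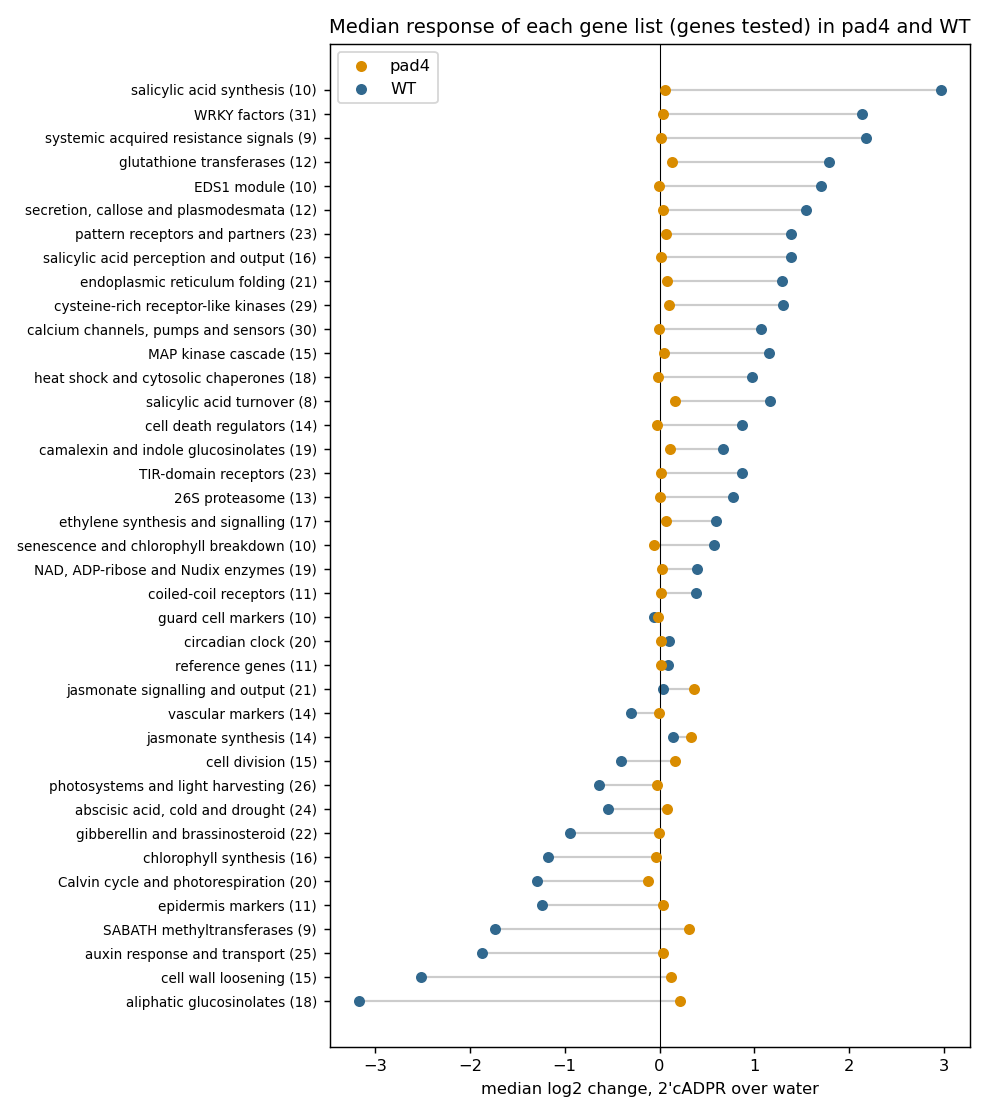
Median log2 change of 2'cADPR over water (x axis) in pad4 and in WT for the 39 lists with at least 8 tested genes, ordered by the median interaction, with the number of tested genes in brackets. The WT medians run from -3.17 for aliphatic glucosinolates to 2.97 for salicylic acid synthesis, while 30 of all 40 lists had a pad4 median within 0.1 of 0.

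Of the 40 lists, 20 had more than 50% of their tested genes negative, 9 had more than 50% positive and 11 had neither. The 9 that were positive hold genes that fell in WT, and the clearest was the synthesis of aliphatic glucosinolates, the methionine-derived mustard oil precursors. All 18 tested genes were positive, with a median interaction of 3.45 and median changes of 0.22 in pad4 and -3.17 in WT. SOT18 (AT1G74090, chr1:27862814-27864193, plus strand), the sulfotransferase of the last core step, was at 89.3, 84.9 and 82.6 CPM in pad4 after 2'cADPR and 77.3, 73.2 and 73.2 CPM in pad4 after water. WT libraries held 5.54, 6.04 and 5.09 CPM after 2'cADPR and 54.2, 60.5 and 59.7 CPM after water. The interaction of SOT18 was 3.58 ± 0.10 (adjusted p = 2.6e-11), and its level in pad4 after 2'cADPR was the highest of the 4 groups.

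The other steps of the pathway behaved likewise. IMD1, of the chain elongation cycle, had 3.90 and AT2G31790 had 3.06. MYB28, a regulator of the pathway chosen after its values were seen, was at 92.7, 110 and 101 CPM in pad4 after 2'cADPR and 103, 98.9 and 89.0 CPM in pad4 after water, against 12.1, 13.7 and 15.5 CPM in WT after 2'cADPR and 60.1, 72.6 and 57.3 CPM in WT after water. Its pad4 groups overlapped and its interaction was 2.27 ± 0.15. In 8 of the 18 genes the 95% interval of the pad4 change lay above 0, though in none did it pass the adjusted test. Over all tested genes 2.84% had such an interval above 0 and 2.21% one below.

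Photosynthesis genes had positive interactions of smaller size. In the photosystems 22 of 26 genes were positive, 1 negative and 3 not called (median 0.62), and in the Calvin cycle and photorespiration all 20 were positive (median 1.17). By the 2-fold rule 5 of the 26 and 14 of the 20 were lost falls, beside 15.9% of all tested genes. The photosystem count is close to that share. FBA1, a plastid aldolase, was at 1035, 989 and 1075 CPM in pad4 after 2'cADPR and 1154, 1128 and 1174 CPM in pad4 after water, against 126, 108 and 134 CPM in WT after 2'cADPR and 721, 829 and 884 CPM in WT after water. The interaction was 2.57 ± 0.13 (adjusted p = 1.7e-09). The pad4 libraries after 2'cADPR lay below those after water, with a pad4 change of -0.16 (adjusted p = 0.98). RBCS2B, a small subunit of Rubisco with near-identical copies that may share reads, had 2.17, the bisphosphatase SBPASE 1.54 and the photoprotection protein gene PSBS 0.95. Chlorophyll synthesis genes were positive in 14 of 16 (median 1.13), with the methyltransferase CHLM at 1.88. LHCB1.4 (-0.65) and GSA1 (-0.26) were the negative members of their lists.

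Growth genes had larger positive interactions. Auxin genes were positive in 20 of 25 and negative in 1 (median 2.18), and 17 of the 25 were lost falls, beside 15.9% of all tested genes. IAA3, a repressor of auxin response, was at 66.8, 60.4 and 65.2 CPM in pad4 after 2'cADPR and 71.1, 56.7 and 58.2 CPM in pad4 after water, against 5.52, 4.97 and 6.30 CPM in WT after 2'cADPR and 46.1, 44.1 and 46.9 CPM in WT after water. Every pad4 library was above every WT library, and the interaction was 3.08 ± 0.14 (adjusted p = 6.9e-10). GH3.6, an amino acid conjugase of auxin, was the negative member (-1.98). Cell wall loosening genes were positive in 10 of 15 and negative in 1 (median 2.36). XTH31, a xyloglucan-modifying enzyme gene, was at 85.7, 62.7 and 68.3 CPM in pad4 after 2'cADPR and 101, 84.9 and 107 CPM in pad4 after water, against 0.645, 0.465 and 0.824 CPM in WT after 2'cADPR and 61.3, 67.7 and 80.3 CPM in WT after water. Its interaction was 6.32 ± 0.24, and the pad4 interval of its change, -0.71 to -0.16, lay below 0, at 6.44% of the change in WT.

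Gibberellin and brassinosteroid genes were positive in 14 of 22 and negative in 2 (median 0.85), beside 29.4% and 28.2% of all tested genes. The receptor gene GID1B was one of the negative ones (-2.81), at 5.53, 5.15 and 4.33 CPM in pad4 after 2'cADPR against 42.8, 44.3 and 40.1 CPM in WT after 2'cADPR. BES1, a transcription factor of brassinosteroid response, had 2.18. Cold and abscisic acid genes were positive in 12 of 24 and negative in 3 (median 0.64), with COR15B and COR15A, neighbouring similar genes, at 3.27 and 1.89. Epidermis markers were positive in 9 of 11 and negative in 0 (median 1.27), with the wax genes CER3 and CER5 at 1.72 and 1.27. The 11 epidermis genes together held 1924 to 2078 CPM in pad4 after 2'cADPR and 1647 to 2136 CPM in pad4 after water, against 792 to 1025 CPM in WT after 2'cADPR and 2085 to 2262 CPM in WT after water. Their part in the other falls was not tested. Lost falls were 8 of 22 gibberellin and brassinosteroid genes, 7 of 24 cold and abscisic acid genes and 7 of 11 epidermis markers. Among all tested genes they were 15.9%. Cell division genes were positive in 5 of 15 and negative in 1 (median 0.51), close to the 29.4% positive of all tested genes, with CYCD3;1, a cyclin of cell cycle entry, at 2.91.

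Families defined by the product names of the reference, 141 with at least 15 tested genes, give a view that does not depend on the lists. The lowest median interaction was that of 17 berberine bridge enzyme-like genes with an FAD-binding domain (-1.95), of which 10 were negative and 3 positive, followed by 42 WRKY genes (-1.34; 21 negative, 4 positive) and 48 NAC transcription factor genes (-0.98; 23 negative, 2 positive). At the other end stood 55 SAUR genes, small auxin-responsive genes (2.42; 33 positive, 6 negative), 39 genes of pectin lyase-like proteins (1.70; 28 positive, 0 negative) and 16 genes of 3-ketoacyl-CoA synthase, which elongates fatty acids (1.4; 12 positive, 1 negative). In each of these 6 families the median pad4 change was between -0.020 and 0.12. The counts stand beside 28.2% negative and 29.4% positive of all tested genes.

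Among called genes with a symbol and at least 5 CPM in the highest group, the 6 largest negative interactions belonged to genes near 0 in both pad4 groups and in WT after water, and the 6 largest positive ones to genes near 0 in WT after 2'cADPR. Among the negative ones, CHX17, a cation/H+ exchanger, and CML43, a calmodulin-like protein, were at 0 in all pad4 libraries after 2'cADPR, so no fold is given. CHX17 reached 15.9, 14.2 and 11.2 CPM in WT after 2'cADPR and its call (adjusted p = 0.0075) was lost without pad4 after water replicate 1. The transporter gene ABCB11 gave a firmer value: it was at 0.135, 0.619 and 0.419 CPM in pad4 after 2'cADPR and 0.258, 0.643 and 0.419 CPM in pad4 after water, against 27.6, 23.8 and 20.3 CPM in WT after 2'cADPR and 0.467, 0.213 and 0.313 CPM in WT after water. Its pad4 and WT libraries overlapped in water and not after 2'cADPR, and the interaction was -6.33 ± 0.59 (adjusted p = 3.6e-07).

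Among the positive ones, GASA6, a gibberellin-regulated gene, was at 31.2, 53.9 and 63.2 CPM in pad4 after 2'cADPR and 50.2, 61.9 and 66.6 CPM in pad4 after water, against 0.334, 0.0465 and 0.0969 CPM in WT after 2'cADPR and 13.7, 20.9 and 20.5 CPM in WT after water. Its interaction was 6.56 ± 0.52 (adjusted p = 7.4e-08), with overlap between the pad4 groups only. HMT3, a homocysteine methyltransferase gene, had 6.79, the transcription factor gene MYB47 had 6.76 and the auxin gene IAA29 had 7.12. CSLA01 was at 0 in all WT libraries after 2'cADPR and at 6.68, 5.22 and 6.92 CPM in pad4 after 2'cADPR (adjusted p = 2.7e-05).

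The 250 bases before the annotated start of each gene were read from the reference genome (RefSeq, TAIR10.1) and searched on both strands for the core of the W-box, TTGAC, which WRKY factors bind, the core of TGA factor sites, TGACG, and the G-box, CACGTG, added after the data were seen; TTGACG holds both of the first 2. Of 1894 lost rises, 57.0% held a W-box core, against 40.0% of 3133 lost falls, 46.7% of 45 kept genes and 44.9% of 19574 promoters in all. A TGA core was in 23.0% of lost rises, 17.8% of lost falls and 19.3% of all, and a G-box in 7.66%, 7.53% and 7.18%. The base composition of these windows was alike, with 31.0% G and C in lost rises, 31.4% in lost falls and 31.7% in all. The following stretches are shown as examples of genes with lost and kept responses, and do not stand for all genes of a class. NUDT7 (chr4:7486975-7487224, plus strand), PARG2 (chr2:13549572-13549821, minus strand) and NPR3 (chr5:18228518-18228767, plus strand) lost a rise. IMD1 (chr5:4575873-4576122, plus strand) lost a fall. FAMT (chr3:16379321-16379570, plus strand), a carboxyl methyltransferase gene, kept its rise. Each is written 5' to 3' on the gene's strand, ending at the base before the start, with motif matches of either strand in capitals.
NUDT7: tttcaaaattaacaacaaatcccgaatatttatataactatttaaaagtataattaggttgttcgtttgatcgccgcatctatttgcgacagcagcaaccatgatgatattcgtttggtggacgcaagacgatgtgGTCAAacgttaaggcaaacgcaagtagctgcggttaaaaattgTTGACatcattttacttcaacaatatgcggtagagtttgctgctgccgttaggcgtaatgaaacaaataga
PARG2: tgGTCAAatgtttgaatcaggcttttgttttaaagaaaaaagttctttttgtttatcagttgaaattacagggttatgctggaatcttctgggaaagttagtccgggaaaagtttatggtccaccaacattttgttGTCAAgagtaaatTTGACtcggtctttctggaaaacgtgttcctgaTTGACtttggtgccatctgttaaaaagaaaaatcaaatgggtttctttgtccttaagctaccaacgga
NPR3: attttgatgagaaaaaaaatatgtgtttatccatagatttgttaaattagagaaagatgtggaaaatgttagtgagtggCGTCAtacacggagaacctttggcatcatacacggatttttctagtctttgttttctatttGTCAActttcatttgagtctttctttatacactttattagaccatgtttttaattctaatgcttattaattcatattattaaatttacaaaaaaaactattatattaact
IMD1: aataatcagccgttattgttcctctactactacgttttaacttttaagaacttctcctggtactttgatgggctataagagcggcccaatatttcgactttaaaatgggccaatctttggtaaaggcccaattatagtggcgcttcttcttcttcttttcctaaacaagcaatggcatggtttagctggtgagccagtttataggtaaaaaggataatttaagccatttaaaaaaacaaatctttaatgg
FAMT: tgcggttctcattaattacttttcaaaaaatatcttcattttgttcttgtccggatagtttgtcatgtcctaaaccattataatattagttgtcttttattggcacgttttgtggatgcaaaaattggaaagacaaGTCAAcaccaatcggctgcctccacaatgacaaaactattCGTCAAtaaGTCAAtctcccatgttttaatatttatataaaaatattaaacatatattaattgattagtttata
NUDT7 held 2 W-box cores, PARG2 4, NPR3 1 together with 1 TGA core, and IMD1 none of the 3 motifs. Other named genes went the other way. The lost rises ICS1 and CBP60g held no W-box core, while the lost falls XTH31, CNGC2 and FBA1 did. FAMT, whose rise was kept, held 3 W-box cores, starting 114, 73 and 65 bases before the start, and a TGA core that overlaps the second.

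Few responses were kept. A kept response had an interaction that was not called, a pad4 change of at least 50% of that in WT and a 95% interval of the pad4 change clear of 0 in the same direction. This held for 45 responders (0.75%; 0.229% of tested genes), 36 that rose and 9 that fell. Of these, 29 were under 1 CPM in both pad4 groups and 13 reached 1 to 5 CPM in the higher one. Among all 2510 rises 6.10% had a pad4 interval above 0 and 1.27% one below, and among 3492 falls 3.98% had one below and 2.98% one above, beside the 2.84% and 2.21% of all tested genes.

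FAMT (AT3G44860, chr3:16379571-16381434, plus strand), which encodes a carboxyl methyltransferase of farnesoic acid, was the 1 kept gene whose pad4 change also passed the adjusted test. It was at 32.0, 24.7 and 32.5 CPM in pad4 after 2'cADPR and 14.1, 12.4 and 16.4 CPM in pad4 after water, against 97.6, 101 and 89.6 CPM in WT after 2'cADPR and 46.5, 43.6 and 44.4 CPM in WT after water. Within each genotype the treatments did not overlap, and every pad4 library lay below every WT library. The change was 1.05 ± 0.11 in pad4 (adjusted p = 0.0029) and 1.10 in WT, and the interaction was -0.05 ± 0.15 (95% interval -0.37 to 0.28; adjusted p = 0.82). Of the 9 tested genes of the SABATH family of methyltransferases, FAMT included, 3 were not called. Another 5 were positive and 1 negative, beside 29.4% and 28.2% of all tested genes. AT3G21950, for example, had an interaction of 2.05, with 18.4, 21.3 and 22.8 CPM in pad4 after 2'cADPR and 18.3, 13.1 and 19.1 CPM in pad4 after water, against 4.87, 4.93 and 6.45 CPM in WT after 2'cADPR and 15.1, 20 and 19.1 CPM in WT after water.

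The other kept genes rest on thinner data. AT1G10585 and AT1G25370, chosen after their values were seen, show this. AT1G10585, annotated as a basic helix-loop-helix protein gene, was at 22.5, 32.7 and 14.9 CPM in pad4 after 2'cADPR and 22.1, 8.83 and 9.84 CPM in pad4 after water, against 32.7, 38.4 and 35.6 CPM in WT after 2'cADPR and 18.0, 10.1 and 18.9 CPM in WT after water. Its pad4 groups overlapped, and the interval of its interaction ran from -1.38 to 0.58, which includes a complete loss. AT1G25370 had an interaction of -0.46 (adjusted p = 0.25) that was called without WT after water replicate 1 (-0.76, adjusted p = 0.049). The jasmonate genes CYP94C1, which oxidises the active hormone, and JAZ5, a repressor chosen after its values were seen, were kept with pad4 changes of 0.65 and 0.66 and under 6 CPM in every pad4 library. MEB2, annotated as a vacuolar iron transporter family gene and also chosen after its values were seen, was at 2.08, 1.81 and 2.44 CPM in pad4 after 2'cADPR and 0.960, 0.850 and 1.07 CPM in pad4 after water, with a pad4 change of 1.13 (adjusted p = 0.28) and a WT change of 1.11.

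Several kept genes with large WT changes were nearly silent in pad4. EXO70H1, an exocyst subunit gene, was at 0, 0.442 and 0.349 CPM in pad4 after 2'cADPR and 0.0234, 0.0230 and 0.0465 CPM in pad4 after water, against 7.19, 9.90 and 6.45 CPM in WT after 2'cADPR and 0.302, 0.399 and 0.240 CPM in WT after water. Its interaction of -1.66 had an interval from -4.86 to 1.53. WRKY58 (interaction -0.11, interval -1.21 to 1.0), the peptidase-like gene scpl16 (-0.04, -1.45 to 1.37) and the glutamate receptor-like gene GLR2.9 (-1.50, adjusted p = 0.080) were also imprecise, and GLR2.9 was called by DESeq2 and without WT after water replicate 1. SEP3, a floral MADS-box gene and a kept fall, was not silent in pad4: it was at 3.14, 1.61 and 2.75 CPM in pad4 after 2'cADPR and 1.80, 12 and 8.72 CPM in pad4 after water, against 0.215, 0.279 and 0.339 CPM in WT after 2'cADPR and 2.14, 1.14 and 1.13 CPM in WT after water. Its pad4 groups overlapped, and its interaction of 0.80 had an interval from -0.94 to 2.54.

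**Figure D5:**
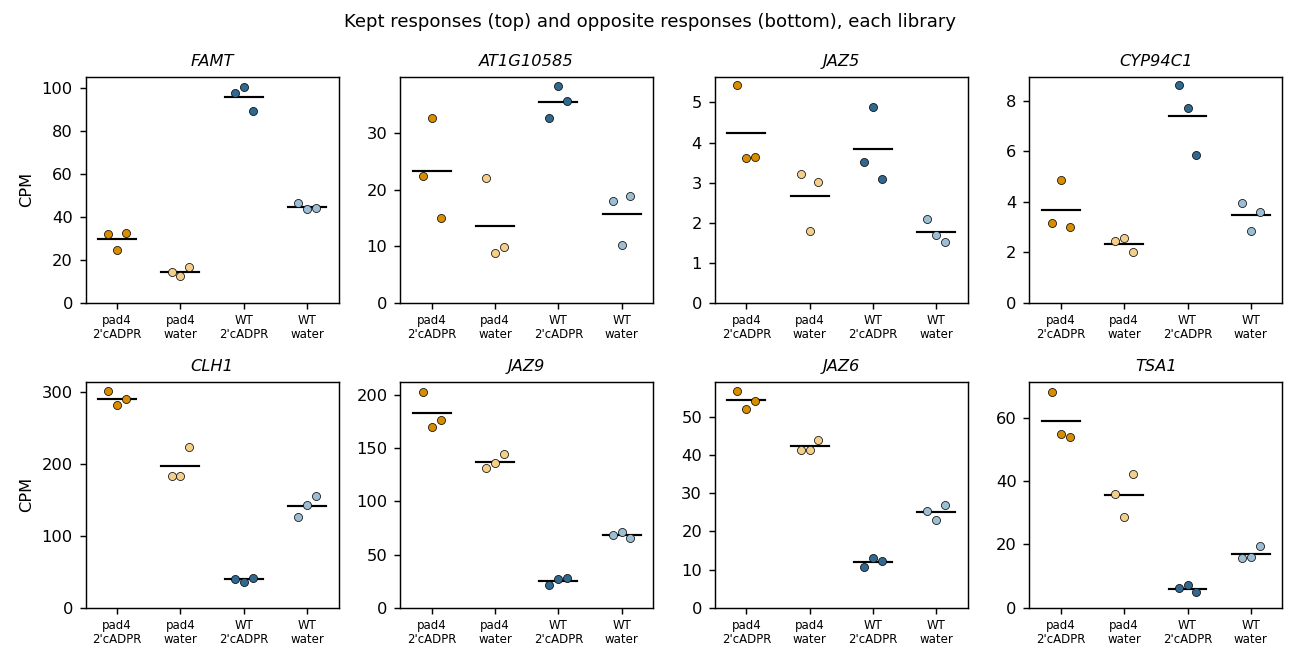
CPM (y axis, linear from 0) in each library of 4 kept genes (top) and 4 genes whose pad4 change was opposite to that in WT (bottom), with groups from left to right as pad4 after 2'cADPR, pad4 after water, WT after 2'cADPR and WT after water and a line at the mean of 3. FAMT separates the treatments in both genotypes, and CLH1, JAZ9, JAZ6 and TSA1 are highest in pad4 after 2'cADPR and lowest in WT after 2'cADPR.

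In 136 responders the interaction was called and the pad4 interval lay wholly on the other side of 0 from the WT change, 104 that fell in WT and 32 that rose. These are the 2.98% of falls and 1.27% of rises given above, and 2.84% of all tested genes had a pad4 interval above 0 and 2.21% one below, so the shares are close to or below those of all genes. None of these pad4 changes passed the adjusted test. CLH1, a chlorophyllase induced by jasmonate, was at 301, 282 and 290 CPM in pad4 after 2'cADPR and 183, 183 and 224 CPM in pad4 after water, against 40.2, 36.1 and 41.8 CPM in WT after 2'cADPR and 126, 144 and 155 CPM in WT after water. Treatments did not overlap in either genotype. The change was 0.56 ± 0.09 in pad4 (adjusted p = 0.21) and -1.85 in WT, and the interaction was 2.41 ± 0.13 (adjusted p = 3.6e-09). JAZ9 and JAZ6, repressors of jasmonate response, had pad4 changes of 0.42 and 0.36 and interactions of 1.84 and 1.43. TSA1, annotated as a TSK-associating protein gene, had a pad4 change of 0.73 and an interaction of 2.23, and CSLA10, a glucomannan synthase-like gene, 1.25 and 4.96.

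Jasmonate and aliphatic glucosinolate genes were the lists in which the pad4 interval lay above 0 most often. Of 14 tested genes of jasmonate synthesis, the 95% interval of the pad4 change lay above 0 in 7 and below in 0, and of 21 genes of jasmonate signalling and output in 10 and 1, beside 2.84% and 2.21% of all tested genes. The median pad4 changes were 0.34 and 0.36, beside -0.0036 over all tested genes. No pad4 change on these lists passed the adjusted test. By the interaction, synthesis genes were positive in 6, negative in 3 and not called in 5, and signalling genes positive in 8, negative in 4 and not called in 9. Over all tested genes 29.4% were positive and 28.2% negative. MYC2, the central transcription factor of the pathway, chosen after its values were seen, was at 197, 157 and 174 CPM in pad4 after 2'cADPR and 125, 110 and 136 CPM in pad4 after water, against 61.4, 66.4 and 66.3 CPM in WT after 2'cADPR and 77.0, 75.0 and 84.9 CPM in WT after water. It was higher after 2'cADPR in pad4 and lower in WT, with no overlap in either, and its interaction was 0.80 ± 0.13 (adjusted p = 9.0e-05).

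Members of these lists differed in what they lost. AOC4 (1.93) and AOS (1.38), of the first committed steps, lost a fall. The lipoxygenase gene LOX4 (-2.06) and the tyrosine aminotransferase gene TAT3 (-2.63) lost a rise. VSP2, a storage protein gene used as a jasmonate marker and chosen after its values were seen, was at 57.6, 128 and 77.2 CPM in pad4 after 2'cADPR and 46.8, 46.5 and 23.4 CPM in pad4 after water, against 7.86, 16.5 and 9.16 CPM in WT after 2'cADPR and 11.4, 9.41 and 20.4 CPM in WT after water. Its interaction of 1.47 (adjusted p = 0.021) missed the threshold in 5 of the alternatives, 4 of them with a single library left out.

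A further 152 genes had a called interaction without a called WT response, 76 positive and 76 negative. The smallest adjusted p was that of a jasmonate gene. OPR3, the reductase of jasmonate synthesis, was at 117, 112 and 117 CPM in pad4 after 2'cADPR and 97.2, 80.8 and 98.4 CPM in pad4 after water, against 68.0, 72.9 and 73.7 CPM in WT after 2'cADPR and 80.9, 78.6 and 81.5 CPM in WT after water. The interaction was 0.49 ± 0.10 (adjusted p = 0.00082). Its WT treatments did not overlap, and its WT change of -0.17 narrowly missed the call (adjusted p = 0.055). JAZ2, another repressor, had 0.49. The ankyrin repeat gene PIA1 had 0.49, TSO2, a ribonucleotide reductase subunit gene, had 0.70, and MEE22 had 0.35. In WT the adjusted p was 0.051 for PIA1, 0.084 for MEE22, 0.11 for TSO2 and 0.35 for JAZ2. A missing WT call therefore does not mean that a gene was unmoved in WT.

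Other lists had members on both sides or few calls, to be read beside the 29.4% positive and 28.2% negative of all tested genes. Clock genes were positive in 5 of 20, negative in 5 and not called in 10 (median -0.046), and 11 of the 20 were called in WT. The clock genes PRR3 (0.66) and CHE (0.77) were positive, PRR9, which averaged under 1 CPM in every group, was negative (-4.46, adjusted p = 0.0033), and CCA1 (0.02) and LHY (-0.43) were not called. Vascular markers were positive in 3 of 14 and negative in 0 (median 0.33), and guard cell markers positive in 3 of 10 and negative in 1 (median -0.090). Of 11 common reference genes, 8 were not called, among them ACT2 (0.06), while UBQ10, a polyubiquitin gene, was at 1212, 1233 and 1201 CPM in pad4 after 2'cADPR and 1248, 1263 and 1130 CPM in pad4 after water, against 2809, 3048 and 2596 CPM in WT after 2'cADPR and 1682, 1538 and 1535 CPM in WT after water. Its interaction was -0.83 ± 0.11 (adjusted p = 1.6e-05). Among responders 1 gene had an interaction of the same sign as its WT response: AT1G65850, annotated as a TIR receptor gene and chosen after its values were seen, was at 0.0902, 0.199 and 0.0698 CPM in pad4 after 2'cADPR and 0 in pad4 after water, and lost its call in 13 of 18 alternatives.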

How the data were processed

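RNA of 12 libraries from rosette leaves was sequenced. The table the authors deposited holds raw counts of reads per gene, and their FPKM table holds FPKM, used here only to match gene lengths with the reference (20599 of 20602 genes within 2%). Per the submitters' processing notes, fastp, HISAT and HTSeq were used with TAIR10. Versions, settings and strand use were not stated, so values of overlapping antisense genes are uncertain.

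Counts were analysed with edgeR 4.0.16 in R 4.3.3: filterByExpr (minimum count 10), TMM factors, 1 mean per group fitted to the 12 libraries by quasi-likelihood, two-sided F-tests and Benjamini-Hochberg adjustment over 19652 of 24228 genes. A standard error is the log2 change over the square root of F. CPM are TMM-scaled. The median standard error of the interaction was 0.168. Library totals were 35816755 to 44436989 reads, and libraries of a group differed by 6.76 to 29.4 chi-square units per gene, so none was a duplicate. Simulated data held 19420 genes, each with 1 mean over all groups. In treated WT, 50 genes with a mean of at least 50 counts were moved per fold. Changes of 1.5, 2, 4 and 0.5-fold were recovered as interactions in 48%, 80%, 98% and 86% of these, with 9 false calls. None of the moved genes was near 0 in pad4, so the rates do not cover such genes.

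The 40 gene lists (684 of 702 genes in the table) and the comparison were chosen with earlier results of these data known. Members of a list are named by smallest interaction adjusted p (up to 3), further genes by size of interaction, by size of WT change if kept, by pad4 p if opposite, and any other gene named was chosen after its values were seen. In 155 tested genes a group held 0 counts; 0 of 40 list medians moved by 0.01 when these were set to 3 counts over the group. Motifs and families were searched with Python 3.11.15. Alternatives were DESeq2 1.42.0, limma-voom (limma 3.58.1), other scaling, other filters, a replicate block, 4-fold responders and each library left out; a 5 CPM limit was added after the data were seen.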

Additional observations from a re-analysis of the deposited data

Results flagged for a closer look

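The effect of 2'cADPR differed between pad4 and WT, by the interaction test of edgeR, in 11326 genes, 5787 positive and 5539 negative. These include 1895 rises and 3133 falls of WT that were lost in pad4. The pad4 interval lay on the other side of 0 from the WT change in 136 responders, but no pad4 change among them passed the adjusted test. They were 2.98% of falls and 1.27% of rises, beside 2.84% of all tested genes with a pad4 interval above 0 and 2.21% with one below. A further 152 genes had a called interaction without a called WT response, though some missed the WT call narrowly.

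Among the opposite genes the interactions were 2.41 for CLH1, 2.23 for TSA1, 4.96 for CSLA10, 1.84 for JAZ9 and 1.43 for JAZ6. Among those without a WT call they were 0.49 for OPR3, 0.49 for JAZ2, 0.49 for PIA1, 0.70 for TSO2 and 0.35 for MEE22. Groups of 3 libraries are too small for a formal search for outlying samples, and none was made. WT after water replicate 1 was singled out only by its place on the principal component analysis, and each library was left out in turn.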

How the results depend on the processing

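Of 235 recomputed counts, 223 stayed within 1.5 times the reported one and 12 did not. Of the 163 gene results, none changed sign while called in either fit. Across the alternatives, 34 values lost a call and 5 gained one. Uncalled interactions of kept genes did change sign, among them FAMT (-0.14 to 0.074), AT1G10585 (-0.72 to 0.14), scpl16 (-0.56 to 0.74) and WRKY58 (-0.39 to 0.29). DESeq2 called 33 pad4 responses in place of 1. Kept genes numbered 14 with at least 5 CPM required in at least 3 libraries and 3 with 5 CPM in a pad4 group, where lost rises numbered 1150. With 4-fold responders there were 617 lost rises, 1205 lost falls, 23 kept and 72 opposite genes.

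Leaving out 1 library gave 10653 to 11418 called interactions (5487 to 5699 positive, 5166 to 5734 negative; at 2-fold, 3083 to 3299 positive and 1940 to 2355 negative). It gave 5793 to 6296 responders, 1761 to 2172 lost rises, 2989 to 3216 lost falls, 36 to 66 kept, 97 to 201 opposite, 121 to 205 without a WT call and 1 to 3 pad4 calls. Without WT after water replicate 1 there were 11418 interactions, 2355 of them negative at 2-fold or more, 6296 responders, 2172 lost rises and 36 kept genes. Calls of ABO3, ALD1 and CHX17 were lost without pad4 after water replicate 1, of CML43 without replicate 3 and of UGT76B1 without replicate 2, and SUC2 lost its call in 11 alternatives.

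Same-numbered libraries deviated together with correlations of -0.163 to 0.201, not all over 0.1, so the numbers were not taken as pairs; with the replicate block 11218 interactions were called. Scaling by RLE factors moved the median interaction to -0.037. Depth limits genes under about 1 CPM in pad4, where 29 of the 45 kept responses lie.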
